A study of Mus musculus with 12 samples.

Results

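Integrin alpha chains that bind extracellular matrix were followed in single nuclei of mouse lung. The 10 genes Itga1, Itga2, Itga3, Itga5, Itga6, Itga7, Itga8, Itga9, Itga10 and Itga11 were chosen by name as alpha chains with a matrix ligand. The choice was made with earlier results of these data known. All 10 were found among the 31053 genes of the files. Their levels are given across the cell classes of the lung and across the 4 groups of mice.

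An integrin is a receptor of 1 alpha and 1 beta chain that spans the cell membrane and ties the matrix outside to the cytoskeleton inside, and the alpha chain largely sets the ligand. The chains encoded by Itga1, Itga2, Itga10 and Itga11 bind collagens, those of Itga3, Itga6 and Itga7 bind laminins, those of Itga5 and Itga8 bind ligands with an RGD sequence such as fibronectin and nephronectin, and that of Itga9 binds tenascin-C and osteopontin. All of them pair with the beta chain encoded by Itgb1, and the Itga6 product also pairs with that of Itgb4. In the lung these receptors hold epithelium and endothelium to the basement membrane and hold fibroblasts to the interstitial matrix, which is remodelled in fibrosis.

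Nuclei positive for DAPI had been sorted from frozen lungs of C57BL/6J mice and sequenced from the 3′ end, each mouse giving 1 library and each of the 4 groups holding 3 mice. Mice received PBS or bleomycin, which injures the lung and leads to fibrosis, into the trachea at 7 weeks of age, with bleomycin at 1.2 U per kg. From day 5 they were gavaged once daily for 5 days with NVP-BHG712, an inhibitor of the EphB4 kinase, or with its vehicle, and lungs were taken on day 14. The groups are named PBS_Vehicle, PBS_NVP-BHG712, Bleo_Vehicle and Bleo_NVP-BHG712, and the comparisons ask how bleomycin and the inhibitor moved each alpha chain.

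The 12 libraries held 49163 barcodes with 3556084 to 61947690 unique molecular identifiers (UMIs) each, and 44611 nuclei were kept. Levels are in CPM, the UMIs of a gene scaled to the total UMIs of the nuclei summed, and adjusted p-values are from edgeR's quasi-likelihood test with Benjamini-Hochberg adjustment over all genes tested. The 3 Bleo_Vehicle libraries stood apart: their median nucleus had 0.668% to 2.56% of its UMIs from mitochondrial genes, against at most 0.0496% in the other 9 libraries, and Bleo_Vehicle replicate 1 had the lowest median depth, 925 UMIs per nucleus against up to 5408. The labels also put Bleo_Vehicle into batches of its own and all 3 Bleo_NVP-BHG712 libraries into 1 run of their own, so wherever a bleomycin group enters, the batch and the treatment cannot be told apart. In sums over many nuclei, fewer cells of a type and less RNA per cell cannot be told apart either.

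On GRCm38 the 10 genes span 18.9 to 294.3 kb (GENCODE M21). Itga8 lies at chr2:12106632-12301922 on the minus strand, Itga9 at chr9:118606690-118901003 on the plus strand, and Itga5 at chr15:103344286-103366763 on the minus strand. Itga1 (chr13:114953096-115101964) and Itga2 (chr13:114833081-114932100) are neighbours on the minus strand. Itga3 lies at chr11:95044474-95076801, Itga6 at chr2:71745616-71858416, Itga7 at chr10:128933818-128958282, Itga10 at chr3:96645584-96664519 and Itga11 at chr9:62677826-62783982. Most reads of nuclei come from unspliced RNA, and 2 genes overlap others of the files on the same strand, Itga1 with Pelo and Gm49395 and Itga10 with Gm42957, so that their counts are less certain.

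The promoters of Itga8 and Itga5 are shown because these were the 2 chains that differed in opposite directions when all nuclei were summed. Each run covers 250 bases before to 50 bases after the start of the gene in RefSeq on GRCm38.p6, read 5′ to 3′ on the minus strand, at chr2:12301895-12302194 for Itga8 and at chr15:103366742-103367041 for Itga5. Capitals mark E-box matches, CANNTG, which reads the same on both strands.
Itga8: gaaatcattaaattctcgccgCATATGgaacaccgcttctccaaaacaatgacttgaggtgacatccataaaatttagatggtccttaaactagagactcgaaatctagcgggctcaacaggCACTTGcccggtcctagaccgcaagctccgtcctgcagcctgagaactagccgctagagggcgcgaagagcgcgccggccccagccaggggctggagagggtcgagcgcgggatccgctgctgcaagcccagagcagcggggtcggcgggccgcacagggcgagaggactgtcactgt
Itga5: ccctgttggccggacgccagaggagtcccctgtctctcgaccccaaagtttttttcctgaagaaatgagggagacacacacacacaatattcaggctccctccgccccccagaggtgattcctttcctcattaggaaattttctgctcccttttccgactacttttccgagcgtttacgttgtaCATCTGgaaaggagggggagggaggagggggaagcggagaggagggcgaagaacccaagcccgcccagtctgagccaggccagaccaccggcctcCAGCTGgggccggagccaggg
Each promoter held 2 E-boxes, a motif present in 72.3% of the 32851 mouse promoters of this length. Neither held the AP-1 motif TGANTCA, which 7.81% of promoters hold, or the TEAD motif GGAATG, which 14.7% hold. The GC-box GGGCGG, held by 35.7% of promoters, was matched 2 times before Itga5 and not before Itga8. These letters are a description of the windows, and no binding was measured.

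Nuclei fell into 19 classes named from marker genes, and the classes differed widely in which alpha chains they held. Levels by class are means over the libraries with at least 20 nuclei of that class, a description without a test. Smooth muscle-like and neuroendocrine-like nuclei reached 20 only in PBS_NVP-BHG712 replicate 1 and Bleo_Vehicle replicates 2 and 3. Their means therefore lean on Bleo_Vehicle and cover other libraries than those of most classes. Levels in this section are compared between classes for 1 gene at a time.

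Itga8, the alpha chain of the nephronectin receptor, was concentrated in fibroblast-like nuclei, at 2271 CPM ± 918 (SD, n = 12 libraries). Smooth muscle-like nuclei followed at 1324 CPM ± 472 (n = 3 libraries), and the next class, neuroendocrine-like nuclei, had 112 CPM. Fibroblast-like nuclei gave 78966 of the 83953 Itga8 UMIs. The fibroblast-like libraries ranged from 431 to 3285 CPM, with the 3 Bleo_Vehicle libraries lowest.

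Itga9, whose product binds tenascin-C, was highest in type II alveolar-like nuclei, the surfactant-secreting epithelium, at 1287 CPM ± 468 (SD, n = 12). Lymphatic endothelial-like nuclei followed at 988 CPM ± 171 (n = 7), a difference within the spread of the libraries. Fibroblast-like nuclei had 484 CPM ± 89.8, under the lymphatic endothelial-like level beyond the pooled SD and in 7 of the 7 libraries with both. Smooth muscle-like nuclei had 483 CPM and type I alveolar-like nuclei 386 CPM. From fibroblast-like nuclei downward, neighbours in this order did not differ beyond their pooled SD.

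The collagen chains Itga1 and Itga2 and the laminin chain Itga6 were chiefly vascular. Itga1 was highest in pericyte-like nuclei, at 1006 CPM ± 397 (SD, n = 8), and in general capillary-like nuclei, at 946 CPM ± 315 (n = 12). The pericyte-like level was the higher one in 8 of the 8 libraries that held both classes, although the means lay within 1 SD. Itga2 stood at 349 CPM ± 101 in general capillary-like and 344 CPM ± 51.2 in aerocyte-like nuclei, the capillary cells specialised for gas exchange, which did not differ beyond their spread, and at 242 CPM in arterial endothelial-like nuclei. Itga6 had 778 CPM ± 174 in general capillary-like, 737 CPM in arterial and 520 CPM in venous endothelial-like nuclei, followed by interstitial macrophage or monocyte-like nuclei with 33.0 to 204 CPM. The highest pericyte-like and B cell-like libraries, at 218.8 and 221.2 CPM, overlapped the lowest venous library, at 210.4 CPM. Itga6 in aerocyte-like nuclei was 22 CPM in the mean, far under the general capillary-like level.

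Itga3, a laminin chain, showed the reverse order within the capillaries, with 306 CPM ± 90.1 (SD, n = 12) in aerocyte-like against 81 CPM in general capillary-like nuclei. Type I alveolar-like nuclei, the flat epithelium that lies against aerocytes across a shared basement membrane, came second at 173 CPM ± 52.1, under the aerocyte-like level in 11 of 12 libraries. The fibronectin chain Itga5 had no single leading class: it stood at 184 CPM in smooth muscle-like nuclei (3 libraries), 123 CPM in venous and 117 CPM in arterial endothelial-like nuclei, 113 CPM in alveolar macrophage-like and 112 CPM in interstitial macrophage or monocyte-like nuclei, and no neighbours in this order differed beyond their pooled SD.

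Itga7, Itga10 and Itga11 were sparse, with 853, 569 and 523 UMIs in all kept nuclei. Itga7, a laminin chain known from muscle, led in smooth muscle-like nuclei at 43.5 CPM ± 5.59 (n = 3), or 28.35 CPM in the 2 libraries left when nuclei needed no fewer than 500 UMIs and at most 1% mitochondrial UMIs (strict nuclei), followed by club-like nuclei at 24.0 CPM and type II alveolar-like nuclei at 19.1 CPM. Itga10 led in smooth muscle-like nuclei at 30.2 CPM ± 9.76, a mean over 3 libraries with 4, 3 and 6 UMIs. Itga11, known as a collagen receptor of activated fibroblasts, had 27.8 CPM ± 17.6 in ciliated-like nuclei (194 UMIs) and 19.8 CPM in smooth muscle-like nuclei, while the 88 UMIs of fibroblast-like nuclei amounted to a pooled 2.32 CPM with an exact Poisson 95% interval of 1.86 to 2.86 CPM, which covers counting error only. Of those 88 UMIs, 26 lay in the adventitial-like subcluster of 476 nuclei described below, at 15.7 CPM ± 13.5 (SD, n = 8 libraries).

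**Figure D1:**
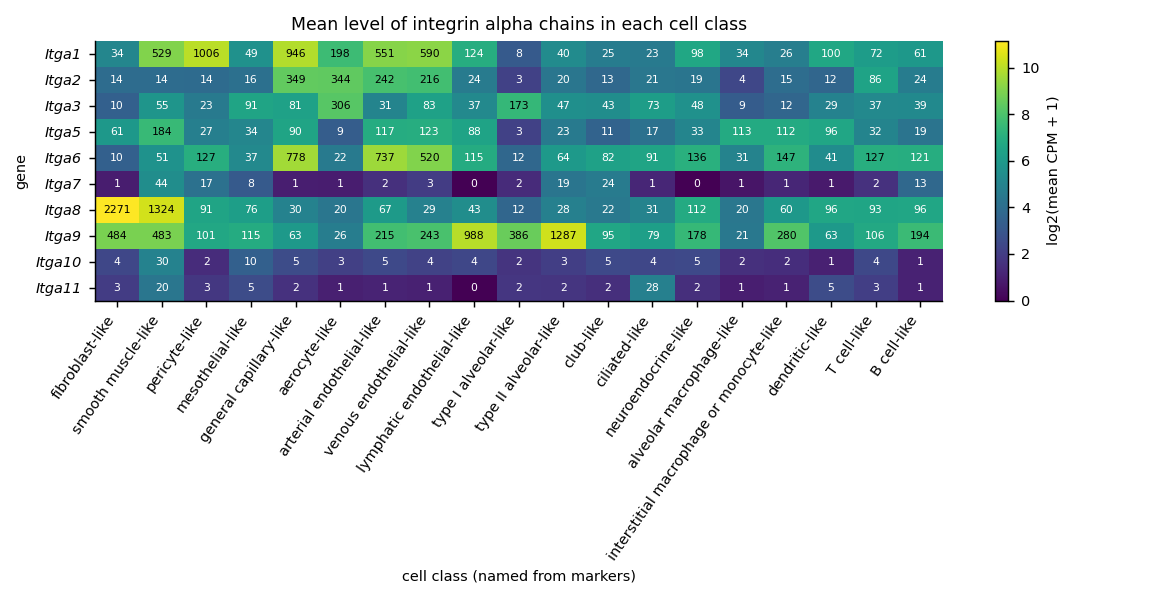
Heat map of the mean level of each integrin alpha chain (rows) in each of the 19 marker-named cell classes (columns), coloured by log2(mean CPM + 1) with the mean CPM printed in each cell. Itga8 reached 2271 CPM in fibroblast-like nuclei and Itga9 1287 CPM in type II alveolar-like nuclei. Itga1, Itga2 and Itga6 were highest in blood vessel classes but not high in all of them. Itga6 was 22.5 CPM in aerocyte-like nuclei, and Itga2 was 13.9 CPM in pericyte-like nuclei.

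The genes whose class levels ran most like each chain were sought among 12258 genes by Pearson's r over the 19 class means, a description in which all classes share the same libraries. Itga8 was most like Col6a3, a collagen VI chain (r = 0.97), Gria1 and Epha3. Itga1 was most like Pde3a (r = 0.94), Gjc1 and Mcam, Itga2 like Ctla2a, Fkbp1a and Fmo1, and Itga6 like Cd93 (r = 0.90), Mcf2l and Ptprb. Itga9 was most like Npr2 (r = 0.82) and Itga3 like Tspan8 (r = 0.85), weaker likenesses than for Itga8. Among the chains themselves the closest pairs were Itga1 with Itga2 (r = 0.64), Itga2 with Itga6 (r = 0.63) and Itga1 with Itga6 (r = 0.62).

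The shared beta chain Itgb1 ranged only from 137 CPM in ciliated-like to 599 CPM in smooth muscle-like nuclei, so that every class held it. Npnt, which encodes nephronectin, the ligand of the Itga8 receptor, was highest in the same class as Itga8, at 1244 CPM in fibroblast-like nuclei, and next in type I alveolar-like nuclei at 647 CPM. Tnc, encoding the Itga9 ligand tenascin-C, was also led by fibroblast-like nuclei, at 311 CPM.

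When all kept nuclei of a library were summed, Itga8 was lower after bleomycin and vehicle than in any other group. Its levels were 584, 788 and 1046 CPM in PBS_Vehicle, 545, 850 and 901 CPM in PBS_NVP-BHG712, 104, 243 and 301 CPM in Bleo_Vehicle and 915, 807 and 993 CPM in Bleo_NVP-BHG712. All 3 Bleo_Vehicle libraries lay below the other 9. The fitted log2 difference was -1.87 ± 0.36 (SE; edgeR adjusted p = 0.0233) for Bleo_Vehicle against PBS_Vehicle and 2.10 ± 0.36 (adjusted p = 0.0102) for Bleo_NVP-BHG712 against Bleo_Vehicle. The first call was lost without PBS_Vehicle replicate 2, PBS_Vehicle replicate 3 or Bleo_Vehicle replicate 2 (log2 -1.99 to -1.60, adjusted p 0.0577 to 0.102), and the second without Bleo_NVP-BHG712 replicate 3 (log2 2.03, adjusted p = 0.0545). The first was also lost with only the 2 groups compared in the fit (adjusted p = 0.122) and with strict nuclei (adjusted p = 0.0547).

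Itga5 in all nuclei ran the other way. It stood at 32.9, 22.7 and 25.01 CPM in PBS_Vehicle and 31.0, 25.8 and 26.4 CPM in PBS_NVP-BHG712, against 189.9, 57.7 and 42.6 CPM in Bleo_Vehicle and 24.1, 20.9 and 26.7 CPM in Bleo_NVP-BHG712. The Bleo_Vehicle libraries lay above all others, replicate 1 by far the most. The log2 difference was 1.92 ± 0.45 (adjusted p = 0.0464) for bleomycin with vehicle and -2.01 ± 0.46 (adjusted p = 0.0285) for the inhibitor after bleomycin. The bleomycin call held in only 2 of 12 fits that each left out 1 library, those without Bleo_Vehicle replicate 1 or 3, and its estimate without replicate 1 was 0.93. The other 10 gave 1.83 to 2.19 with adjusted p 0.0541 to 0.169, and the inhibitor call was lost without any 1 of the Bleo_NVP-BHG712 libraries (adjusted p 0.0895 to 0.108). Both calls were lost without a filter on low counts, with only the 2 groups compared and with strict nuclei (adjusted p 0.0518 to 0.217), and the bleomycin call also with plain library sizes (adjusted p = 0.0572).

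The third chain to change in all nuclei was Itga7, which fell by 1.03 ± 0.26 on the log2 scale with the inhibitor after bleomycin (adjusted p = 0.0406), from 5.37, 6.63 and 7.71 CPM in Bleo_Vehicle to 3.41, 2.76 and 3.53 CPM in Bleo_NVP-BHG712. These levels rest on 23, 90 and 358 UMIs in Bleo_Vehicle and only 12, 19 and 19 UMIs in Bleo_NVP-BHG712. The groups did not overlap, but the call was lost in 8 of 12 fits without 1 library: any Bleo_NVP-BHG712 library, Bleo_Vehicle replicates 2 and 3, PBS_Vehicle replicate 2 and PBS_NVP-BHG712 replicates 2 and 3 (log2 -1.09 to -0.90, adjusted p 0.0506 to 0.129), and also without a filter on low counts, with plain library sizes, with only the 2 groups compared and with strict nuclei (adjusted p 0.0529 to 0.103). In all nuclei, 2 of the 10 chains tested thus passed for Bleo_Vehicle against PBS_Vehicle beside 2.44% of all 14442 genes, with a median log2 difference of 0.031 for the chains and 0.0066 for all genes. For Bleo_NVP-BHG712 against Bleo_Vehicle, 3 of 10 passed beside 5.51% of all genes, with medians of -0.20 and -0.05.

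The share of fibroblast-like nuclei moved little with the fall of Itga8: it was 17.5% to 27.4% in PBS_Vehicle and 16.5% to 25.6% in Bleo_Vehicle, while interstitial macrophage or monocyte-like nuclei rose from 0.848% to 1.40% in PBS_Vehicle to 3.18% to 5.91% in Bleo_Vehicle. The fibroblast-like share of UMIs was 23.3% to 33.3% and 18.6% to 22.9%. The part of these shares in the differences of all nuclei was not tested, and the classes were therefore fitted one by one.

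Within fibroblast-like nuclei the fall of Itga8 was seen again. Its levels were 2313, 2516 and 3063 CPM in PBS_Vehicle, 2151, 2546 and 3085 CPM in PBS_NVP-BHG712, 431, 847 and 1449 CPM in Bleo_Vehicle and 3089, 2481 and 3285 CPM in Bleo_NVP-BHG712. The highest Bleo_Vehicle library lay under the lowest of all other libraries. Itga8 fell by 1.57 ± 0.34 on the log2 scale with bleomycin and vehicle (adjusted p = 0.0189), a 2.97-fold lower level, and was 3.46-fold higher with the inhibitor after bleomycin than with vehicle (log2 1.79 ± 0.34, adjusted p = 0.00915). The inhibitor comparison held in 12 of 12 fits that each left out 1 library, with log2 values of 1.47 to 2.29. The bleomycin comparison was lost without PBS_Vehicle replicate 2 or 3 or Bleo_Vehicle replicate 2 (log2 -1.58 to -1.43, adjusted p 0.0557 to 0.0801), or with only the 2 groups compared (adjusted p = 0.0904).

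Nephronectin was lowest in the same libraries. Npnt stood at 1321, 1066 and 1944 CPM in PBS_Vehicle, 419, 402 and 726 CPM in Bleo_Vehicle and 1969, 980 and 1855 CPM in Bleo_NVP-BHG712. The Bleo_Vehicle libraries lay below all others, as for Itga8, and Npnt fell by 1.52 ± 0.35 with bleomycin (adjusted p = 0.0258) and was higher by 1.72 ± 0.35 with the inhibitor (adjusted p = 0.0117). Itgb1, the beta chain of the receptor, did not pass in either comparison and stood at 262 to 517 CPM in PBS_Vehicle and 258 to 336 CPM in Bleo_Vehicle.

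Itga5 in fibroblast-like nuclei was 26.6, 12.2 and 16.6 CPM in PBS_Vehicle, 454.9, 76.9 and 29.8 CPM in Bleo_Vehicle and 21.4, 13.4 and 24.6 CPM in Bleo_NVP-BHG712. All 3 Bleo_Vehicle libraries lay above the others and differed widely among themselves. Both tests fell at the threshold: log2 3.23 ± 0.83 for bleomycin had an adjusted p of 0.0500607 and was not called, and log2 -3.11 ± 0.86 for the inhibitor had 0.0499962 and was called. Without Bleo_Vehicle replicate 1 the inhibitor difference was -1.33 (adjusted p = 0.0601), and this call was lost in 11 of 12 fits without 1 library, the exception being that without Bleo_Vehicle replicate 3 (adjusted p 0.0573 to 0.177 in the 11). It was also lost with RLE or no normalization factors, the replicate number as a block in the fit (replicate block), only the 2 groups compared and strict nuclei (adjusted p 0.0531 to 0.109).

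Itga2 and Itga6, which fibroblast-like nuclei held far below general capillary-like nuclei, were also lower with the inhibitor after bleomycin than with vehicle. Itga2 was 90.2, 19.6 and 15.2 CPM in Bleo_Vehicle and 0.971, 3.69 and 6.94 CPM in Bleo_NVP-BHG712, beside 6.15 to 8.48 CPM in PBS_Vehicle (log2 -3.10 ± 0.77, adjusted p = 0.0314, with as few as 1 UMI in a library). Itga6 was 22.6, 21.9 and 14.03 CPM and 2.91, 4.15 and 5.04 CPM in the same groups, beside 2.81 to 18.3 CPM in PBS_Vehicle (log2 -2.09 ± 0.59, adjusted p = 0.0458). In both genes the bleomycin groups did not overlap. The Itga2 call was lost without any 1 of the Bleo_NVP-BHG712 libraries (adjusted p 0.0791 to 0.103), and the Itga6 call also without Bleo_Vehicle replicate 1 or 2 or PBS_NVP-BHG712 replicate 2 or 3 (adjusted p 0.0537 to 0.145). With strict nuclei both calls were lost (adjusted p = 0.0691 for Itga2 and 0.166 for Itga6), the Itga2 call also with only the 2 groups compared (adjusted p = 0.0704), and the Itga6 call with doublets kept or plain library sizes (adjusted p = 0.0729 and 0.0535).

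Itga9 in fibroblast-like nuclei was 566, 592 and 484 CPM in PBS_Vehicle, 268, 442 and 367 CPM in Bleo_Vehicle and 493, 517 and 487 CPM in Bleo_NVP-BHG712. The Bleo_Vehicle libraries lay below the rest, but neither difference passed (log2 -0.63, adjusted p = 0.0573; log2 0.56, adjusted p = 0.0681). In fibroblast-like nuclei 8 of the 10 chains could be tested, all but Itga7 and Itga11. For Bleo_Vehicle against PBS_Vehicle 1 of 8 passed beside 4.69% of all 10456 genes, with median log2 differences of 0.50 for the chains and 0.0024 for all genes. For Bleo_NVP-BHG712 against Bleo_Vehicle 4 of 8 passed beside 7.63%, with medians of -0.92 and -0.05.

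Markers of type II alveolar cells were higher in the fibroblast-like nuclei of Bleo_Vehicle as well: the summed level of the 10 markers, all of them detected, was 112 to 220 CPM in PBS_Vehicle, 352 to 1441 CPM in Bleo_Vehicle and 90.4 to 156 CPM in Bleo_NVP-BHG712. The 11 markers of fibroblasts themselves summed to 5843 to 7425, 4114 to 5919 and 6708 to 7254 CPM. The general capillary markers, which fibroblast-like nuclei of every group held, summed to 3562 to 4486, 2705 to 3319 and 4026 to 4432 CPM. The part of these markers in the differences of the alpha chains was not tested.

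**Figure D2:**
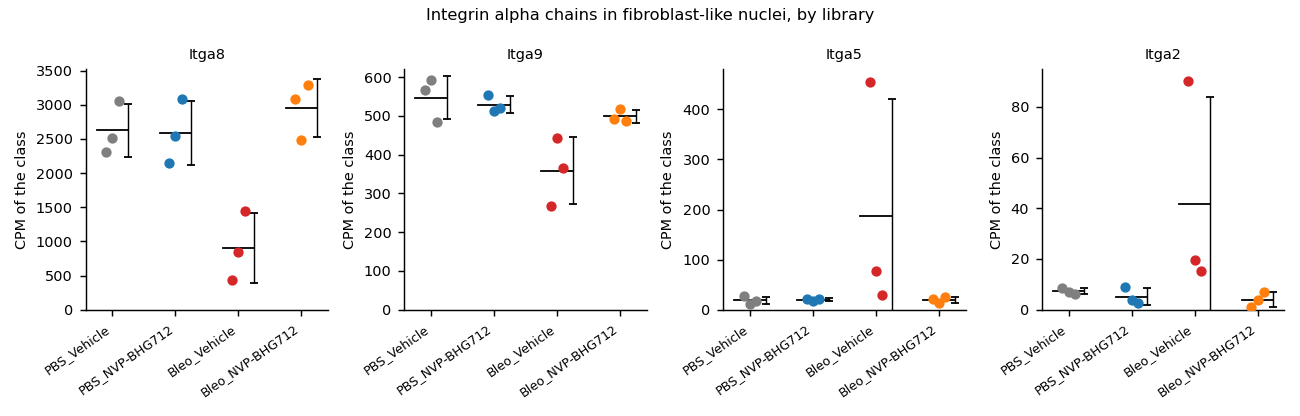
Levels of Itga8, Itga9, Itga5 and Itga2 in fibroblast-like nuclei, in CPM, for each library (points) in the 4 groups, with the group mean (line) and SD (error bar, not drawn below 0). The 3 Bleo_Vehicle points of Itga8, at 431 to 1449 CPM, lie below all 9 others, and Bleo_Vehicle replicate 1 stands far above the rest for Itga5 at 454.9 CPM.

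The fibroblast-like nuclei were divided further into 9 subclusters, without the alpha chains among the genes used. Subcluster 1, with a median of 1644 UMIs per nucleus, was led by the type II alveolar genes Sftpc and Lyz2, and the 4 smallest, of 112 to 277 nuclei, by genes of other cells such as Pecam1, Hbb-bs and Mrc1. The low Itga8 of Bleo_Vehicle was present in each of the 4 subclusters with enough nuclei in every library. In the largest, led by Tmem117 and Inpp4b, Itga8 was 2896, 3051 and 3440 CPM in PBS_Vehicle, 741, 1359 and 1960 CPM in Bleo_Vehicle and 3479, 2954 and 3797 CPM in Bleo_NVP-BHG712. In subcluster 3, which carried markers of fibrotic fibroblasts such as Tnc, the levels were 1340, 1298 and 2319 CPM, 345, 317 and 790 CPM and 2624, 1358 and 2043 CPM. No Bleo_Vehicle library reached any other library in any of the 4 subclusters. These levels are a description, since subclusters share the libraries of the fit.

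The makeup of the fibroblast-like nuclei differed too. The fibrotic-like subcluster held 30.8%, 14.02% and 10.2% of fibroblast-like nuclei in the Bleo_Vehicle libraries and 5.2% to 7.9% in the other 9, and the subcluster with the highest Itga8 held 4.3%, 19.8% and 33.6% against 39.0% to 47.7%. Itga5 was among the genes that led the fibrotic-like subcluster, where it had 772, 356 and 82.2 CPM in Bleo_Vehicle and 12.3 to 110 CPM elsewhere, so that Bleo_Vehicle replicate 3 overlapped the other groups. The adventitial-like subcluster, marked by Pi16 and Scara5, had 10.6 to 238 CPM of Itga8 in the 8 libraries with at least 20 of its nuclei. There Itga8 was not low in Bleo_Vehicle, at 238, 166 and 142 CPM. It was 185 and 10.6 CPM in PBS_Vehicle and 75.3, 36.7 and 224 CPM in PBS_NVP-BHG712.

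The high Itga2 of Bleo_Vehicle was not even over the subclusters. In subclusters 0 and 1 it was 69.9, 3.78 and 5.27 CPM and 36.2, 3.81 and 6.14 CPM, against 0 to 5.85 CPM in the other groups, so that replicate 1 alone stood well above them. In the fibrotic-like subcluster it was 125, 41.9 and 61.7 CPM against 0 to 65.5 CPM, and replicates 2 and 3 overlapped the rest. Subcluster 5, led by capillary genes such as Pecam1 and Flt1, had 67.4 to 106 CPM of Itga2 in the 5 libraries measured and held 7.66%, 5.62% and 1.89% of fibroblast-like nuclei in Bleo_Vehicle against 0.253% to 3.92% in the other groups, and its part in the Itga2 difference was not tested.

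**Figure D3:**
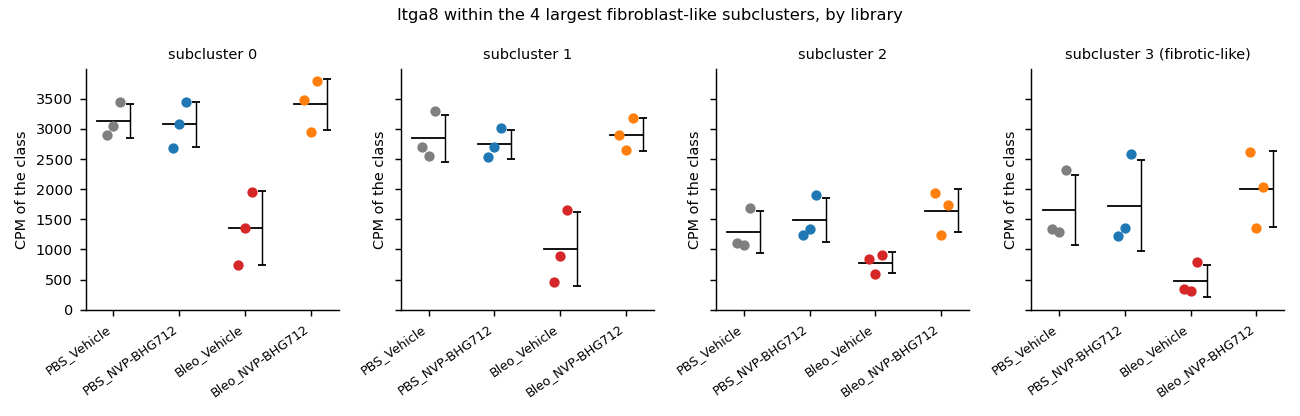
Itga8 level in CPM for each library (points) within the 4 largest subclusters of fibroblast-like nuclei, with group means (lines) and SDs (error bars). In subclusters 0 to 3 the Bleo_Vehicle points lie below those of the other 3 groups.

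In type II alveolar-like nuclei, the class with the highest Itga9, this chain fell with bleomycin. It stood at 1907, 1414 and 1458 CPM in PBS_Vehicle, 1994, 1254 and 1236 CPM in PBS_NVP-BHG712, 404, 565 and 957 CPM in Bleo_Vehicle and 1468, 1454 and 1339 CPM in Bleo_NVP-BHG712. The Bleo_Vehicle libraries lay below all 9 others. Itga9 fell by 1.17 ± 0.26 on the log2 scale with bleomycin and vehicle (adjusted p = 0.0198) and was higher by 1.03 ± 0.26 with the inhibitor (adjusted p = 0.0405). The first call was lost without PBS_Vehicle replicate 1 or Bleo_Vehicle replicate 2 (adjusted p 0.0866 to 0.0900), and the second without any 1 of the Bleo_NVP-BHG712 libraries, Bleo_Vehicle replicate 1 or 2, PBS_Vehicle replicate 3 or PBS_NVP-BHG712 replicate 2 (log2 0.82 to 1.11, adjusted p 0.0506 to 0.152). Both were lost with only the 2 groups compared (adjusted p = 0.104 and 0.130).

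Itga2 was low in type II alveolar-like nuclei outside Bleo_Vehicle. It was 8.79, 7.13 and 16.4 CPM in PBS_Vehicle, 63.1, 73.7 and 28.9 CPM in Bleo_Vehicle and 12.6, 11.0 and 2.60 CPM in Bleo_NVP-BHG712, on 22, 119 and 157 UMIs in Bleo_Vehicle and 1 to 18 UMIs in each other library. The Bleo_Vehicle libraries lay above all others, and they alone reached the 22.6 CPM that the filter on low counts asked of 3 libraries. Itga2 thus entered the test only through the group in which it was high, and its differences, which edgeR called, are given as a description.

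The laminin chains Itga3 and Itga6 of type II alveolar-like nuclei were higher in Bleo_Vehicle than in Bleo_NVP-BHG712. Itga3 was 97.5, 81.7 and 66.5 CPM in Bleo_Vehicle and 28.3, 19.8 and 36.3 CPM in Bleo_NVP-BHG712, and fell by 1.65 ± 0.36 with the inhibitor (adjusted p = 0.0226). PBS_Vehicle had 63.9, 45.2 and 21.8 CPM of Itga3, and the bleomycin difference did not pass (log2 0.93, adjusted p = 0.0984). Itga6 was 62.0, 57.0 and 43.6 CPM in PBS_Vehicle, 48.8, 142.4 and 113.6 CPM in Bleo_Vehicle and 31.4, 57.1 and 62.3 CPM in Bleo_NVP-BHG712. Its Bleo_Vehicle range overlapped both others through replicate 1, and both differences passed narrowly, at log2 1.09 ± 0.30 (adjusted p = 0.0498) and -1.18 ± 0.32 (adjusted p = 0.0489).

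The Itga3 call of these nuclei was lost without any 1 of the Bleo_NVP-BHG712 libraries or Bleo_Vehicle replicate 2 (log2 -1.84 to -1.43, adjusted p 0.0617 to 0.108). Each Itga6 call was lost in 10 of 12 fits without 1 library (adjusted p 0.0534 to 0.253 for bleomycin and 0.0621 to 0.209 for the inhibitor), and held only without Bleo_Vehicle replicate 1 or 3. With only the 2 groups compared the Itga3 call and both Itga6 calls were lost (adjusted p 0.0663 to 0.168), and the Itga6 calls also with plain library sizes, the replicate block and strict nuclei (adjusted p 0.0515 to 0.158). Among the beta chains, Itgb6, which marks injured epithelium and activates latent TGF-beta, rose in the same nuclei from 39.0, 19.0 and 43.6 CPM in PBS_Vehicle to 269.6, 125 and 140.2 CPM in Bleo_Vehicle (log2 2.48 ± 0.43, adjusted p = 0.00761) and stood at 25.2, 48.3 and 54.5 CPM in Bleo_NVP-BHG712 (log2 -2.12 ± 0.44, adjusted p = 0.0223).

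Of the 8 chains tested in type II alveolar-like nuclei, 3 passed for Bleo_Vehicle against PBS_Vehicle, Itga2 among them, beside 5.15% of all 6307 genes, with median log2 differences of 1.01 for the chains and -0.0054 for all genes. For Bleo_NVP-BHG712 against Bleo_Vehicle 4 of 8 passed, again with Itga2, beside 4.53%, with medians of -1.18 and -0.01. Since Itga2 was tested only through its high group, these counts and medians support nothing about the chains. Markers of other classes moved with these results. The summed general capillary markers in type II alveolar-like nuclei were 409 to 610 CPM in PBS_Vehicle, 680 to 2434 CPM in Bleo_Vehicle and 378 to 605 CPM in Bleo_NVP-BHG712, and the type I alveolar markers 921 to 1764, 2087 to 2306 and 1047 to 1642 CPM, with every marker of both lists detected. Their part in the levels of Itga2, Itga3, Itga6 and Itgb6 was not tested, and alternative fits of Itgb6 are not given. The type II alveolar markers themselves summed to 13740 to 15380 CPM in PBS_Vehicle, 3722 to 11870 CPM in Bleo_Vehicle and 12480 to 14260 CPM in Bleo_NVP-BHG712, and their part in the fall of Itga9 was not tested.

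In general capillary-like nuclei Itga2 was lowest and Itga9 highest in Bleo_Vehicle. Itga2 was 335, 453 and 386 CPM in PBS_Vehicle, 162, 192 and 289 CPM in Bleo_Vehicle and 333, 383 and 514 CPM in Bleo_NVP-BHG712. The Bleo_Vehicle libraries lay below all others, and Itga2 was higher with the inhibitor by 0.80 ± 0.23 on the log2 scale (adjusted p = 0.0476), while the bleomycin difference of -0.70 did not pass (adjusted p = 0.0839). The inhibitor call was lost without any 1 of the Bleo_NVP-BHG712 libraries, Bleo_Vehicle replicate 1 or 2, or replicate 3 of either PBS group (log2 0.64 to 0.94, adjusted p 0.0513 to 0.255), with only the 2 groups compared (adjusted p = 0.0902) and with strict nuclei (log2 0.53, adjusted p = 0.333).

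Itga9 in general capillary-like nuclei was 46.7, 37.4 and 21.7 CPM in PBS_Vehicle, 94.5, 176.2 and 78.2 CPM in Bleo_Vehicle and 62.8, 48.9 and 29.2 CPM in Bleo_NVP-BHG712. All Bleo_Vehicle libraries were the higher ones, with log2 1.72 ± 0.36 for bleomycin (adjusted p = 0.00784) and -1.45 ± 0.39 for the inhibitor (adjusted p = 0.0386). Without Bleo_Vehicle replicate 2 these became 1.21 (adjusted p = 0.139) and -0.94 (adjusted p = 0.364), and the inhibitor call was also lost without Bleo_Vehicle replicate 1 (adjusted p = 0.0509) or any 1 of the Bleo_NVP-BHG712 libraries. Both Itga9 calls were lost with strict nuclei (adjusted p = 0.0589 and 0.187) and when nuclei were clustered without Harmony (adjusted p = 0.142 and 0.318), and the inhibitor call with only the 2 groups compared (adjusted p = 0.0523). Type II alveolar markers in these nuclei summed to 199.6 to 425 CPM in PBS_Vehicle, 560.5 to 2991 CPM in Bleo_Vehicle and 193 to 343 CPM in Bleo_NVP-BHG712. At the ratio of type II alveolar-like nuclei they would bring 52.7, 25.9 and 20.3 CPM of Itga9 in PBS_Vehicle and 60.9, 213 and 241 CPM in Bleo_Vehicle. This was above the measured level in PBS_Vehicle replicate 1 and in Bleo_Vehicle replicates 2 and 3. Such projections for Bleo_Vehicle lay under the measured Itga2, Itga3 and Itga6 of type II and Itga3 and Itga6 of type I alveolar-like nuclei. In fibroblast-like nuclei they lay above the measured Itga6, and above Itga2 in replicates 2 and 3. For both genes they also lay above the measured level in every library of the other groups. Itga6 was projected at 188.9 against a measured 2.81 CPM in PBS_Vehicle replicate 2, and Itga2 at 74.4 against 0.971 CPM in Bleo_NVP-BHG712 replicate 1. In fibroblast-like nuclei the projection thus does not set Bleo_Vehicle apart. The part of any of these markers in the differences was not tested.

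Itga1 in general capillary-like nuclei, among its highest classes, was 1188, 1114 and 1119 CPM in PBS_Vehicle, 216, 380 and 1078 CPM in Bleo_Vehicle and 1017, 1129 and 991 CPM in Bleo_NVP-BHG712. Bleo_Vehicle replicates 1 and 2 were low and replicate 3 was close to the other groups, and neither difference passed (log2 -0.88, adjusted p = 0.243; log2 0.78, adjusted p = 0.275). Pericyte-like nuclei were not fitted, since the rule asked for 2 libraries in every group and Bleo_NVP-BHG712 had 1. Their Itga1 stood at 1279 and 1127 CPM in 2 PBS_Vehicle libraries, 318, 424 and 1209 CPM in Bleo_Vehicle and 1150 CPM in the Bleo_NVP-BHG712 library. Of 7 chains tested in general capillary-like nuclei, 1 passed for Bleo_Vehicle against PBS_Vehicle beside 4.2% of all 6100 genes (medians -0.40 and -0.02), and 2 passed for Bleo_NVP-BHG712 against Bleo_Vehicle beside 4.67% (medians -0.09 and -0.01).

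Type I alveolar-like nuclei held Itga3 at 182, 151 and 150 CPM in PBS_Vehicle, 314, 181 and 213 CPM in Bleo_Vehicle and 143, 125 and 145 CPM in Bleo_NVP-BHG712. The 2 bleomycin groups did not overlap, whereas Bleo_Vehicle replicate 2 lay within the PBS range. Itga3 was lower by log2 -0.75 ± 0.20 with the inhibitor (adjusted p = 0.0395), and the bleomycin difference of 0.58 did not pass (adjusted p = 0.110). Itga6 was 18.4, 31.0 and 26.2 CPM in Bleo_Vehicle and 5.17, 10.3 and 3.36 CPM in Bleo_NVP-BHG712 (log2 -1.98 ± 0.50, adjusted p = 0.0360), beside 3.39 to 19.5 CPM in PBS_Vehicle.

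The Itga3 call of type I alveolar-like nuclei was lost without any 1 of the Bleo_NVP-BHG712 libraries, Bleo_Vehicle replicate 1 (log2 -0.47, adjusted p = 0.0928), PBS_Vehicle replicate 2 or PBS_NVP-BHG712 replicate 3, and the Itga6 call without Bleo_NVP-BHG712 replicate 1 or 3 or Bleo_Vehicle replicate 2 or 3 (log2 -1.97 to -1.64, adjusted p 0.0540 to 0.169). With doublets kept both calls were lost (adjusted p = 0.0556 and 0.107), and the Itga3 call also with only the 2 groups compared (adjusted p = 0.0796). General capillary markers in these nuclei summed to 53.5 to 478 CPM in PBS_Vehicle, 210 to 375 CPM in Bleo_Vehicle and 87.8 to 105 CPM in Bleo_NVP-BHG712, and their part in the Itga6 difference was not tested. No chain of 7 passed for Bleo_Vehicle against PBS_Vehicle, beside 3.79% of all 9277 genes, though 4 had an unadjusted p under 0.05 and DESeq2 called 0, and 2 of 7 passed for Bleo_NVP-BHG712 against Bleo_Vehicle beside 5.3%. The median log2 differences of the chains were 0.41 and -0.90, beside -0.0008 and -0.03 for all genes, but Itga5 was tested there only through Bleo_Vehicle, where it was high, and the medians support nothing. In aerocyte-like nuclei none of 5 chains passed in either comparison or had an unadjusted p under 0.05, and DESeq2 called 0, beside 0.918% and 1.29% of 4795 genes. Itga3, which these nuclei led, stood at 466, 255 and 244.5 CPM in PBS_Vehicle and 246, 307 and 383 CPM in Bleo_Vehicle.

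**Figure D4:**
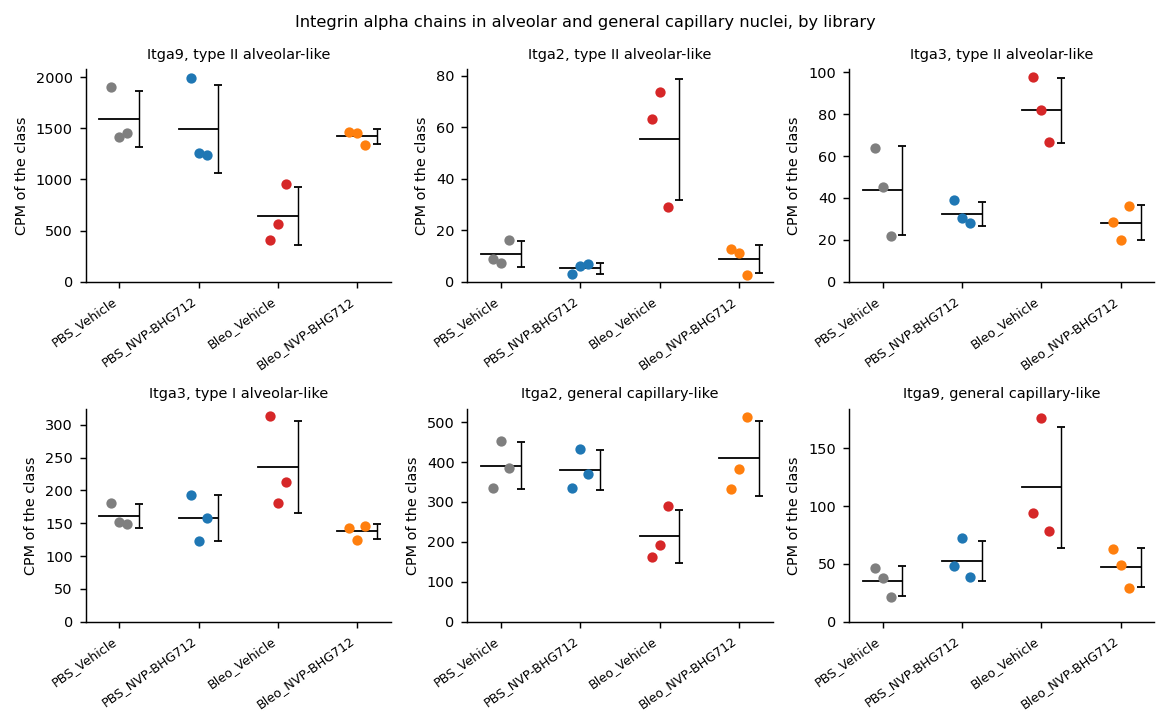
Levels in CPM of Itga9, Itga2 and Itga3 in type II alveolar-like nuclei, Itga3 in type I alveolar-like nuclei, and Itga2 and Itga9 in general capillary-like nuclei, for each library (points) with the group mean (line) and SD (error bar). Itga9 is low in Bleo_Vehicle in type II alveolar-like nuclei (404 to 957 CPM) and high there in general capillary-like nuclei (78.2 to 176.2 CPM).

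Alveolar macrophage-like nuclei, which were not fitted, held Itga5 at 86.7, 88.8 and 80.1 CPM in PBS_Vehicle, 244.8, 137 and 154 CPM in Bleo_Vehicle and 127.5, 53.9 and 107 CPM in Bleo_NVP-BHG712. The Bleo_Vehicle libraries were again the highest, without overlap with the other groups.

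**Figure D5:**
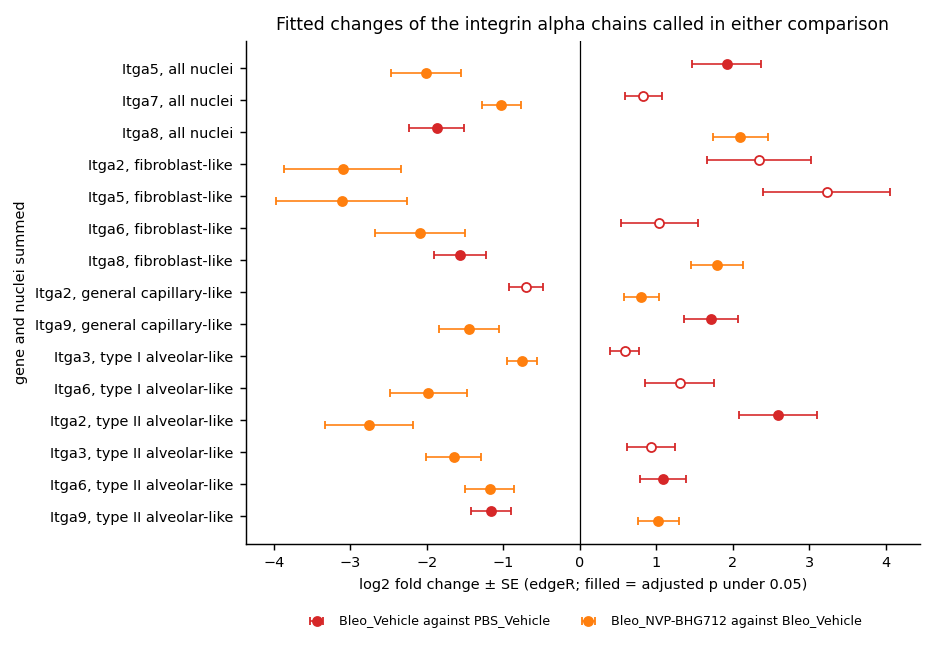
Fitted log2 fold changes (points) with SE (bars) from edgeR for the alpha chains called in either comparison, by the nuclei summed. Filled points have an adjusted p under 0.05. The red and orange points of each row share the Bleo_Vehicle libraries, and for Itga8 in fibroblast-like nuclei they lie at -1.57 and 1.79.

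Without bleomycin the inhibitor moved no alpha chain past the test. For PBS_NVP-BHG712 against PBS_Vehicle, 0 chains passed in all nuclei or in any of the 5 classes fitted, beside 0% of all genes in each, and DESeq2 called 0 genes in all of them but type I alveolar-like nuclei, where it called 1. By unadjusted p under 0.05 the chains numbered 1, Itga8 in type I alveolar-like nuclei, with log2 -1.78 between levels of 9.42 to 45.8 CPM and 5.11 to 7.90 CPM. For Bleo_NVP-BHG712 against PBS_NVP-BHG712, 0 chains passed anywhere, beside 0% of all genes, 0 genes were called by DESeq2, and 1 chain had an unadjusted p under 0.05, Itga1 in type I alveolar-like nuclei (log2 -1.82). Fitted differences of the chains spanned -1.78 to 1.23 and -1.82 to 1.04 in these comparisons.

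Whether the inhibitor acted differently after bleomycin than after PBS was asked with the interaction term, and no chain passed it. The shares of all genes that passed were 0.298% in all nuclei, 0.775% in fibroblast-like, 0.77% in general capillary-like, 0.334% in aerocyte-like, 0.119% in type I and 0.254% in type II alveolar-like nuclei. Itga8 came nearest, at log2 2.20 ± 0.50 in all nuclei (adjusted p = 0.0949) and 1.85 ± 0.47 in fibroblast-like nuclei (adjusted p = 0.0882). At an unadjusted p under 0.05 there were 4 chains in all nuclei, 5 in fibroblast-like, 2 in general capillary-like, 0 in aerocyte-like, 4 in type I and 3 in type II alveolar-like nuclei. DESeq2 called 2 chains in all nuclei, 1 in fibroblast-like nuclei and 0 in the others.

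The ligands, partner chains and adaptors of these receptors were read from lists chosen with earlier results of these data known. In fibroblast-like nuclei 2 of 14 collagen genes tested rose with bleomycin and none fell, the basement membrane collagens Col4a3 (log2 2.02 ± 0.36, adjusted p = 0.00648) and Col4a4 (1.68), beside 4.69% of all genes called, and the list's median log2 difference was 0.61. With the inhibitor 3 of the 14 fell, Col4a3, Col4a4 and Col4a1, beside 7.63% of all genes called, with a median of -0.69. Col4a3 is abundant in type I alveolar-like nuclei, at 1654 to 3099 CPM, and type I alveolar markers in fibroblast-like nuclei summed to 271 to 466 CPM in PBS_Vehicle, 518 to 664 CPM in Bleo_Vehicle and 231 to 426 CPM in Bleo_NVP-BHG712. Subcluster 7, with Col4a3 among its leading genes, held 4.04%, 2.41% and 1.78% of fibroblast-like nuclei in Bleo_Vehicle against 0.123% to 1.88% elsewhere, and the part of either in the collagen differences was not tested. Of 12 RGD and tenascin-type ligands 2 passed in each comparison, Npnt and Spp1, which encodes osteopontin, a ligand of the Itga9 receptor. Spp1 passed the filter on low counts only through Bleo_Vehicle, where it was high, so its levels are given as a description. Of 7 partner chains none passed in either comparison, and of 23 adaptors Tes was called upward and Tns2 downward with bleomycin. Tns2 alone passed upward with the inhibitor (log2 0.82). Tes reached the cutoff of the filter in 0, 1, 3 and 1 libraries of PBS_Vehicle, PBS_NVP-BHG712, Bleo_Vehicle and Bleo_NVP-BHG712. The filter asked for 3 libraries, so Tes was tested only because Bleo_Vehicle passed, and its rise is given as a description.

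Spp1 in fibroblast-like nuclei was 0 to 0.964 CPM in PBS_Vehicle, 0 to 1.26 CPM in Bleo_NVP-BHG712 and 496, 122 and 39.3 CPM in Bleo_Vehicle, where it was also 533, 157 and 50.9 CPM in general capillary-like and 376, 101.6 and 33.7 CPM in type II alveolar-like nuclei, the same order of the 3 libraries in each of these classes. Tnc, whose product Itga9 also binds, was 81.3, 124.9 and 167 CPM in PBS_Vehicle and 1836, 196.5 and 195 CPM in Bleo_Vehicle in fibroblast-like nuclei and was not called. Npnt outside fibroblasts fell in type I alveolar-like nuclei, from 892, 673 and 694 CPM in PBS_Vehicle to 268, 350.1 and 367 CPM in Bleo_Vehicle (log2 -1.16 ± 0.16, adjusted p = 0.00187), and was higher with the inhibitor by 1.15 (adjusted p = 0.00157). In general capillary-like nuclei, where it was low, Npnt rose by 1.85 ± 0.35 with bleomycin (adjusted p = 0.00438), from 21.7 to 25.5 CPM in PBS_Vehicle to 49.2 to 112.7 CPM in Bleo_Vehicle. In these nuclei 6 of 9 collagen genes tested passed upward with bleomycin beside 4.2% of all genes, with a median of 2.02 beside -0.02 for all genes, but 3 of them, Col1a1, Col1a2 and Col3a1, were tested only through Bleo_Vehicle, where they were high. Col6a3 reached the filter cutoff in 0, 1, 2 and 0 libraries of PBS_Vehicle, PBS_NVP-BHG712, Bleo_Vehicle and Bleo_NVP-BHG712. It too was tested only because of Bleo_Vehicle. The count and median thus support nothing about the collagens. Fibroblast markers in these nuclei summed to 69.5 to 117 CPM in PBS_Vehicle and 213 to 507 CPM in Bleo_Vehicle, and their part was not tested.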

How the data were processed

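Raw UMI counts per gene and nucleus were used as deposited by the authors, who aligned reads to mm10 with Cell Ranger (7.2.0 in the matrix header, 7.0 in the submitters' processing notes, which also name Seurat 4.4.1). The deposited gene tables, of unit other, pair Ensembl identifiers with symbols. Barcodes with fewer than 200 genes (13), more than 6000 genes (96) or over 5% mitochondrial UMIs (1739) were left out, which kept 47319, and 2708 likely doublets were removed by scrublet score (5.72%). The study's removal of ambient RNA with DecontX and its DoubletFinder calls were not rerun. Libraries shared at most 0.85% of the barcodes of the smaller one.

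Nuclei were clustered on 2000 variable genes without the alpha chains, 30 components aligned with Harmony and Leiden resolution 1 (scanpy 1.11.5). Clusters were named from marker lists with at least 3 markers, by a rule completed after seeing the clusters, and 1317 nuclei stayed unnamed. Names rebuilt in this way may differ from the study's. Class levels needed 20 nuclei per library.

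UMIs were summed per library over all nuclei and over 5 classes and tested with edgeR 4.0.16 (quasi-likelihood, robust, TMM factors, filterByExpr, all 4 groups in 1 fit) in R 4.3.3, with calls at an adjusted p under 0.05. Class sums held 120165 to 12168081 UMIs per library. DESeq2 1.42.0 and the other alternatives are given at the end. The fits were tested on simulated data. Replicate numbers paired the libraries only in PBS_NVP-BHG712 against PBS_Vehicle, where deviations of same-numbered libraries correlated at 0.124 to 0.74 over the 6 sums. Coordinates are from GENCODE M21, which held 31011 of the 31053 identifiers.

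The alpha chains and all lists were chosen with earlier results of these data known. Named genes were all 10 chains, the list genes past the test and the 3 genes most alike to each chain over classes among genes that reached 10 CPM in a class. Levels of Tnc and Itgb1, which were not called, and of Spp1 across classes were added after their values were seen. The laminin list is not reported here.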

Additional observations from a re-analysis of the deposited data

How the results depend on the processing

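No fitted difference of a called alpha chain turned its direction under any alternative, while 158 refitted values lost the call and 297 kept it. The direction and call of Itga8 in fibroblast-like nuclei with the inhibitor after bleomycin held under every alternative run. Without a filter on low counts the numbers of chains called were 1 (from 2) and 1 (from 3) in all nuclei for Bleo_Vehicle against PBS_Vehicle and Bleo_NVP-BHG712 against Bleo_Vehicle, 4 (from 1) for the first in fibroblast-like nuclei, 3 (from 1) in general capillary-like nuclei, and 2 (from 0) and 4 (from 2) in type I alveolar-like nuclei, with 1 (from 0) there for PBS_NVP-BHG712 against PBS_Vehicle. The interaction then gave 3 in fibroblast-like, 1 in general capillary-like and 1 in type I alveolar-like nuclei, each from 0. With only the 2 groups compared in a fit, the 2 comparisons gave 0 and 1 in all nuclei, 0 and 2 in fibroblast-like nuclei and 0 and 0 in type II alveolar-like nuclei (from 3 and 4), and the inhibitor comparison gave 0 in general capillary-like and 1 in type I alveolar-like nuclei, with fewer libraries behind each fit.

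With strict nuclei (no fewer than 500 UMIs, mitochondrial share up to 1%) they were 0 and 1 in all nuclei, 1 (from 4) in fibroblast-like nuclei for the inhibitor and 0 and 0 in general capillary-like nuclei, and Itga7 in smooth muscle-like nuclei was 28.35 CPM in place of 43.5. DESeq2 gave 2 for the interaction in all nuclei, 4 for bleomycin and 1 for the interaction in fibroblast-like nuclei, and 4 for the inhibitor in type I alveolar-like nuclei. Plain library sizes, an alternative chosen after seeing the data, gave 1 for bleomycin in all nuclei and 2 for the inhibitor in fibroblast-like nuclei. The replicate block gave 1 for the interaction in all nuclei, 3 for bleomycin and 1 for the interaction in fibroblast-like nuclei, 2 and 1 in general capillary-like nuclei and 1 for bleomycin in type I alveolar-like nuclei. It changed no call in PBS_NVP-BHG712 against PBS_Vehicle, the only comparison that the numbers pair. Without Harmony the fibroblast-like nuclei gave 4 for bleomycin and 2 for the interaction, general capillary-like nuclei 0 and 1, and type I alveolar-like nuclei 2 for bleomycin, and smooth muscle-like and dendritic-like classes did not form. With doublets kept, the inhibitor comparison gave 1 in type I alveolar-like nuclei. For each of these, the cause was not tested.

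Leaving out 1 library at a time, the bleomycin, inhibitor and interaction counts ranged over 0 to 3, 0 to 3 and 0 to 2 in all nuclei, 0 to 3, 1 to 4 and 0 to 1 in fibroblast-like nuclei, 0 to 4, 0 to 4 and 0 to 3 in general capillary-like nuclei, and 0 to 6, 0 to 5 and 0 to 2 in type II alveolar-like nuclei. They ranged over 0 to 1 and 0 to 3 for bleomycin and the inhibitor in type I alveolar-like nuclei and over 0 to 1 for bleomycin in aerocyte-like nuclei. Depth limits the sparse chains: Itga7, Itga10 and Itga11 had 853, 569 and 523 UMIs, and Bleo_Vehicle replicate 1 had the shallowest nuclei.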

Other observations

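Nuclei that no marker list named also held alpha chains. Unnamed cluster 21, of 424 nuclei, had 762 CPM ± 183 of Itga9 (SD over 10 libraries), and unnamed cluster 15, of 731 nuclei, had 352 CPM ± 275 of Itga8 (SD over 7 libraries). Both clusters were part of the sums over all nuclei, but neither was fitted on its own.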
